A study of Mus musculus with 4 samples.

Results

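The peaks described here are sites of open chromatin that the authors annotated as intergenic. Their annotated distance from a transcription start site (TSS) is over 10 kb and at or under 50 kb. They were taken from the authors' deposited table of knockout against control by annotation class and distance alone, with no measured value used. They number 1262 of the 6891 listed peaks (18.3%) and were assigned to 1111 named genes, and 3 of them carry no gene name. ATAC-seq, an assay in which transposase inserts adapters where DNA is accessible, was run on CD31-selected endothelial cells of mouse retinas at postnatal day 7. All 4 libraries came from littermates on C57BL/6 with the transgene Tg(Pdgfb-icre/ERT2) and the allele Rnf20tm1a(EUCOMM)Wtsi named in the strain label, while the treatment field calls Rnf20 floxed. Control mice are Pdgf{beta}CreERT2neg Rnf20p/p and knockout mice are Pdgf{beta}CreERT2pos Rnf20p/p. Mice received 75 µg of (Z)-4-HO-Tamoxifen daily from postnatal day 1 to 4. Controls thus carry the altered Rnf20 alleles and the drug but no Cre, and in knockouts Cre is active where the Pdgfb promoter is, in endothelium.

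For 1 control and 1 knockout library the title and the genotype field name the same genotype, and for the other 2 libraries they name opposite ones. The sources used here do not give the libraries behind the knockout and the control column, so the columns are reported under the authors' names. Each column holds 1 value per peak with no error, and the table lists peaks at unadjusted p < 0.05 only. A peak is called here when the authors' false discovery rate (FDR) is under 0.05. Signal and levels are log2 values, and a fold is the knockout level minus the control level on that scale. Whether the cells were endothelial cannot be read from this table, since a peak equally open in both groups would not be listed. Members assigned to marker genes of other retinal cell types numbered 13, for 161 genes of 10 cell types. Of these 13, 9 had positive folds and 0 were called, beside 72.6% positive and 2.46% called over all members.

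RNF20 is an E3 ubiquitin ligase for histone H2B, and ubiquitinated H2B is a mark laid down along transcribed genes. Distal intergenic sites of open chromatin include enhancers, stretches of DNA that bind transcription factors and act on promoters over a distance. In sprouting endothelium such sites serve genes of tip cells, which lead a sprout under VEGF, and of the stalk cells behind them, in which Notch is active. The gene assigned to each peak here comes from the authors' annotation. It is not always the gene with the nearest TSS in the RefSeq annotation, as given below, or the gene the peak acts on.

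Promoter windows of RefSeq (GRCm38.p6, the build also called mm10) span 250 bases before to 50 bases after a gene's start. They were compared with the 1219 peaks on the chromosomes used, and 22 peaks overlapped a window. Of the 22 overlapped windows 20 belong to genes with predicted-gene (Gm) symbols, and 4 lay whole inside a peak. Those 4 are shown because they are the DNA of the peaks themselves and include the 1 called peak of the 22. The last stretch, from 1 of the strongest sites, is shown for comparison. All run 5′ to 3′ on the strand of the RefSeq gene, and capitals mark matches on either strand to the motif of AP-1 (TGANTCA) or of ETS factors (CAGGAAG).
Gm46430, minus strand, chr13:74617272-74617571, in the peak assigned to Erap1: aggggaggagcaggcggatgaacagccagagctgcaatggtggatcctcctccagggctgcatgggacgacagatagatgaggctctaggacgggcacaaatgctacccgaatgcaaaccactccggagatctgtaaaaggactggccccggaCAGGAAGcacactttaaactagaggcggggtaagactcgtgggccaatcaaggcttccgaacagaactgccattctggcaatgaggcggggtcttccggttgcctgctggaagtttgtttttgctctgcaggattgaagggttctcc
Gm36495, minus strand, chr12:16850886-16851185, in the peak assigned to E2f6: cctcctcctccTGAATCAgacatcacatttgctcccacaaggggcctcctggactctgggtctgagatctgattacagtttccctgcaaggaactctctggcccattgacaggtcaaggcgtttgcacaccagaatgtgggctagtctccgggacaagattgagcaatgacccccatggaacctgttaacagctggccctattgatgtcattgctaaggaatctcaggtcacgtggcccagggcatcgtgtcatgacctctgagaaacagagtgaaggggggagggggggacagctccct
Gm46916, minus strand, chr5:96941318-96941617, in the peak assigned to Gm8013: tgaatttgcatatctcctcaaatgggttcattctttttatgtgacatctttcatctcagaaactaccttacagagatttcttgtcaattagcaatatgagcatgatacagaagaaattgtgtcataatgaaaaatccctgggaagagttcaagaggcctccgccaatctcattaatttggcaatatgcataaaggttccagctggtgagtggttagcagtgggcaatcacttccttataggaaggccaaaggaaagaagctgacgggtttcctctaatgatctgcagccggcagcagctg
Gm42141, plus strand, chr5:105495172-105495471, in the peak assigned to Lrrc8c: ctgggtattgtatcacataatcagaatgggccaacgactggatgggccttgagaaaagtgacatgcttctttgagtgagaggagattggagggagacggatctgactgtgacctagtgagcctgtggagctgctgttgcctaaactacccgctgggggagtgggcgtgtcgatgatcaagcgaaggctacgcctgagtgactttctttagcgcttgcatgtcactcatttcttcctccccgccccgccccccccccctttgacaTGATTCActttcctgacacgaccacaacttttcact
Gm51814, plus strand, chr10:19062529-19062796, in the peak assigned to Tnfaip3: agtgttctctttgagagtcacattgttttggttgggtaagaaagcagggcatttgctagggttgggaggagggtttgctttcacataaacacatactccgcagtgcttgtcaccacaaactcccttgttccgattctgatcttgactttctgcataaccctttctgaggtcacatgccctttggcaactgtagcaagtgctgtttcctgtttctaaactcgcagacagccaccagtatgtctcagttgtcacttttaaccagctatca

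The called peak is the one that holds the Gm46430 window. Its level in the authors' deposited table was 4.66 in knockout and 6.54 in control, a fold of -1.89 at FDR 0.0273. The authors' table assigns it to Erap1, an aminopeptidase that trims antigenic peptides, at a distance of -22303 bases, while RefSeq places a start of the protein-coding gene Gm46430 within the peak. The peak with the Gm36495 window stood at 6.05 in knockout and 5.15 in control in the authors' deposited table (0.90, FDR 0.205). For the Gm46916 window the levels in the authors' deposited table were 5.84 and 4.96 (0.88, FDR 0.365). Of the 4 whole windows, these 2 had positive folds without being called. The Gm42141 window had levels of 5.34 and 6.09 in the authors' deposited table (-0.76, FDR 0.431). At the Gm51814 stretch, 268 bases of a peak -46912 bases from the TSS of Tnfaip3, an inhibitor of NF-kappaB signalling, they were 7.24 and 6.57 in the authors' deposited table (0.67, FDR 0.33). Of the 5 stretches, 3 thus came from peaks with positive and 2 from peaks with negative folds, and the peak of Gm46430 had the largest difference.

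An ETS match stands in the Gm46430 window and an AP-1 match in each of the Gm36495 and Gm42141 windows. Motifs for forkhead factors (TGTTTAC), RBPJ (TGGGAA), TEAD (ACATTCC) and KLF and SP factors (CCACCC) were searched on both strands as well, and of these only RBPJ had a match, in the Gm46916 window. No window shown held more than 1 match, so none overlap. Of all 32851 RefSeq promoter windows used, 13.3% hold the ETS, 7.81% the AP-1, 25.6% the RBPJ, 3.65% the forkhead, 3.85% the TEAD and 31.5% the KLF and SP motif. The 22 overlapping peaks were 16 with positive and 6 with negative folds (72.7% positive). The other 1240 peaks, which include those on chromosomes not compared, were 72.6% positive.

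Most of the listed distal intergenic peaks had a higher level in the knockout than in the control column. Folds were positive at 916 and negative at 346 of the 1262 peaks (72.6% positive, 95% Wilson interval 70.1% to 75%, counting error only), beside 62.1% of all 6891 listed peaks. The median fold was 1.06, beside 0.93 over all listed peaks. Called peaks were few in both directions, with 18 higher and 13 lower. These 31 are 2.46% of the members, beside 3.02% of all listed peaks, and the shares called higher and lower were 1.43% and 1.03% beside 1.29% and 1.73%. The called shares are thus near those of the table as a whole and are no result about these peaks, and the lean towards positive folds was seen mainly in peaks that were not called. About 55.4% of the listed peaks would be expected under p 0.05 with no effect, given about 76300 peaks tested as implied by the FDR values.

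**Figure D1:**
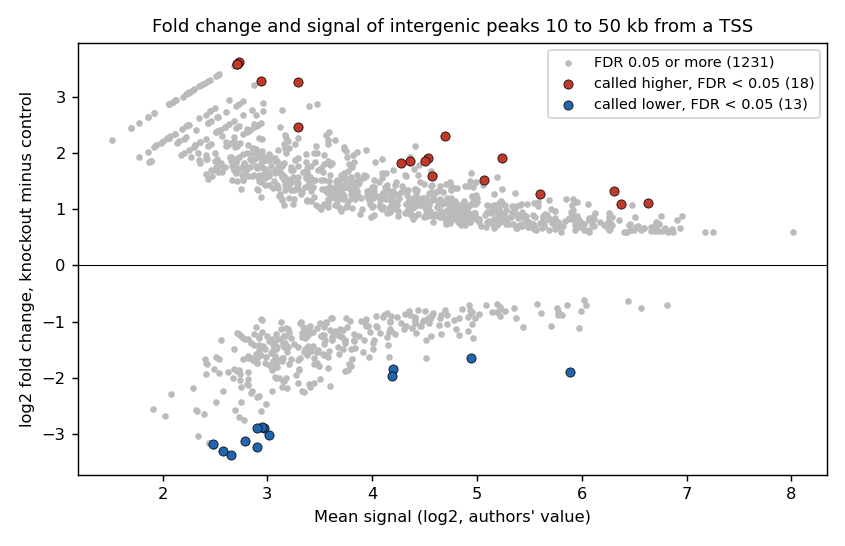
Each point is 1 of the 1262 peaks, with the authors' mean log2 signal on the horizontal and the log2 fold (knockout minus control) on the vertical axis; red points are the 18 called higher and blue points the 13 called lower. The empty band around 0 comes from the p-value threshold of the table, and 9 of the 13 lower peaks have a mean signal below the table's median of 3.74.

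The share of positive folds was lowest at the near end of the range. From 10 to 15 kb, 171 of 262 peaks had positive folds (65.3%, Wilson interval 59.3% to 70.8%), and from 45 to 50 kb 57 of 73 (78.1%, 67.3% to 86%). The interval of the nearest bin lay just below that of 20 to 30 kb (71% to 79.7%) and overlapped that of 45 to 50 kb. In wider bins, from 10 to 20 kb 326 of 469 peaks had positive folds (69.5%), and from 20 to 30 kb 276 of 365 (75.6%). From 30 to 40 kb the count was 179 of 245 (73.1%) and from 40 to 50 kb 135 of 183 (73.8%), with Wilson intervals that overlap in all 4 bins. Upstream peaks were 590 of 808 positive (73%) and downstream peaks 326 of 454 (71.8%). Closer intergenic peaks, at or under 10 kb, were 68.6% positive, those from 50 to 200 kb 79.4% and those over 200 kb 81.6%. Just inside the lower limit the 3 nearest members, assigned to Zbtb2, Rnf2 and Psmd6, had folds of -1.70, -1.31 and 2.2 in the authors' deposited table, and just outside it Ptges, Upk3a and Gimap6 had 0.83, 2.94 and 0.82. At the upper limit Ercc4, Rybp and Jrkl had 0.81, -1.65 and -1.39 inside, and Prickle2, Vmn2r87 and Agps had 1.83, 1.99 and -3.16 outside, in the authors' deposited table.

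The balance of signs differed between strong and weak sites. In the strongest quartile of the table (mean log2 signal above 4.7) 287 of 332 members had positive folds, which is 86.4%. The share was 73.4% in the next quartile (215 of 293), 56.5% in the one below it (170 of 301) and 72.6% in the weakest (244 of 336). Other intergenic peaks of the strongest quartile were 86.3% positive at or under 10 kb, 90.5% from 50 to 200 kb and 96.8% over 200 kb (60 of 62, Wilson interval 89% to 99.1%, beside 82.3% to 89.7% for the members). Promoter-TSS peaks differed, with 25.4% positive in the strongest quartile (46 of 181) and 63.5% in the weakest. Intron peaks at the same distance of 10 to 50 kb were 63.7% positive in the strongest quartile (156 of 245). Over all listed peaks the share was 66.5% in the strongest quartile (Wilson interval 64.2% to 68.7%), then 60.3%, 54.1% and, in the weakest, 67.1%. Among the strongest peaks the Wilson intervals of the members, of these introns and of the promoters did not overlap. This describes the listed peaks and is no test over animals. How the libraries were scaled to each other is not stated in the sources used here, and its part in these shares was not tested.

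**Figure D2:**
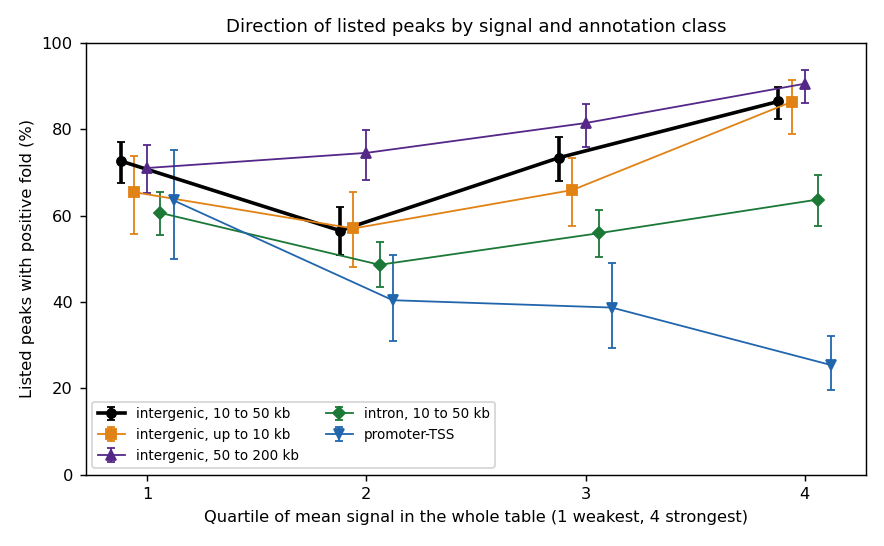
The percentage of listed peaks with a positive fold is plotted against the quartile of mean signal in the whole table, for the members (black) and 4 other classes; bars are 95% Wilson intervals of the counts. In the strongest quartile members stood at 86.4%, introns of the same distance at 63.7% and promoter-TSS peaks at 25.4%.

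Peaks with positive folds were wider and stronger than those with negative folds. Median width was 305.5 bases for the 916 positive and 219.5 bases for the 346 negative peaks. Median mean signal was 3.94 and 3.41 on the log2 scale. Positive folds ran from 0.59 to 3.29 (median 1.31) at the 878 peaks whose control level was above its lowest value, and negative folds from -3.24 to -0.62 (median -1.33) at the 337 whose knockout level was above its own. The control level was listed at 0 for 38 members and the knockout level at its lowest value of 0.13 for 9, and no fold is given for these. The 5 strongest sites all had small positive folds in the authors' deposited table, and none was called. Tsc22d2, a leucine zipper protein gene, had the strongest (knockout 8.28, control 7.69, fold 0.59, FDR 0.377 in the authors' deposited table). A site near Hoxb1, a homeobox gene, came second in the authors' deposited table (7.52 and 6.92, 0.60, FDR 0.355). Dusp1, a phosphatase that shuts off MAP kinases, followed in the authors' deposited table (7.44 and 6.85, 0.59, FDR 0.386). The site assigned to Lif, an interleukin 6 family cytokine gene, stood at 7.33 and 6.44 in the authors' deposited table (0.89, FDR 0.164), and the site near Tnfaip3 given above was the remaining one of the 5.

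Called peaks with a higher level in the knockout column (gains) numbered 18. The smallest FDR belonged to a peak 26662 bases from the TSS of Cacng6, a calcium channel gamma subunit gene (chromosome 7, 3451144 to 3451504), with 5.42 in knockout and 3.12 in control in the authors' deposited table (2.30, FDR 0.0026). Next came a site assigned to the predicted gene Gm20743, with 4.15 and 0.88 (3.27, FDR 0.00691 in the authors' deposited table), which lies inside the long noncoding RNA gene Gm32652 in RefSeq. The peak upstream of Utp14a, a gene of ribosomal RNA processing, stood at 5.19 and 3.28 in the authors' deposited table (1.92, FDR 0.0214). These 3 gains differ in kind, since the first and the third were open sites in control and the second was near the bottom of the scale. Near Tuba3b, an alpha-tubulin gene, the knockout level was 3.62 against a control listed at 0, at FDR 0.0284 in the authors' deposited table. Kcnf1, a potassium channel subunit gene, and Gm1604b had the same pattern, both at 3.59 in knockout against a control listed at 0 (FDR 0.0401 in the authors' deposited table). Pdgfb, described below, had the same FDR as Tuba3b.

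The other gains lay near genes of varied function. They included Tnfsf8, which encodes the CD30 ligand (knockout 5.01, control 3.15, fold 1.87, FDR 0.0293 in the authors' deposited table), and Ifngr1, the interferon gamma receptor gene. At the Ifngr1 peak, 28336 bases upstream, the levels in the authors' deposited table were 5.16 and 3.57 (1.59, FDR 0.0434). Dspp, a gene of dentin, had a peak at 5.90 and 3.99 in the authors' deposited table (1.91, FDR 0.0313). Rmi2, a genome stability gene, was assigned a peak at 4.91 and 3.09 in the authors' deposited table (1.82, FDR 0.039). In RefSeq the peak given to the zinc finger gene Zfp287 overlaps that gene, and in the authors' deposited table it stood at 6.82 and 5.72 (1.10, FDR 0.039). The remaining 6 gains were assigned to Tyms-ps (1.53), Gm536 (1.86), 6430710C18Rik (1.27), D830026I12Rik (knockout 7.09, control 5.97), Mir101a (2.46) and Prune2 (3.29) in the authors' deposited table. Signal in 12 of the 18 gains reached the median of all listed peaks, 3.74, while 4 of the 13 losses did so. By quartile of mean signal, weakest first, gains numbered 4, 2, 6 and 6 among the members. Over all listed peaks calls higher numbered 21, 23, 20 and 25, and the losses are compared below.

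Called peaks with a lower level in the knockout column (losses) numbered 13, most of them weak sites. The smallest FDR was at Tcf7l1, a transcription factor gene of the Wnt pathway, at a peak 18984 bases upstream (chromosome 6, 72807921 to 72808136). Its level in the authors' deposited table was 0.52 in knockout and 3.76 in control (-3.24, FDR 0.0214). Near Xpa, a nucleotide excision repair gene, the levels were 0.89 and 3.79 in the authors' deposited table (-2.90, FDR 0.0233). Zbtb8os, a gene of the tRNA ligase complex, was assigned a peak at 0.89 and 3.77 in the authors' deposited table (-2.88, FDR 0.0273). All 3 were moderately open in control and near the bottom of the scale in knockout. Knockout levels at the column's lowest value of 0.13 were listed for the peaks near Mir187 (control 3.52, FDR 0.0273), 4930453N24Rik (control 3.44, FDR 0.0328) and Dgkg, a diacylglycerol kinase gene (control 3.33, FDR 0.0464), in the authors' deposited table. The peaks of Gm4792, 4933407E24Rik and Wsb1, a ubiquitin ligase adaptor gene, had folds of -3.12, -3.02 and -2.89 in the authors' deposited table. In all, 9 of the 13 had a knockout level under 1. By quartile of mean signal, weakest first, calls lower numbered 9, 0, 2 and 2 among the members. Over all listed peaks they numbered 60, 33, 14 and 12, so weak sites among the losses are not particular to the members.

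The other 4 losses were at sites whose knockout level was 2.89 or more. Beside the Erap1 peak shown above they lay near Ano1, Gpr142 and 2310069B03Rik. Ano1 encodes a calcium-activated chloride channel, and its peak, 37602 bases upstream, stood at 3.00 in knockout and 4.84 in control in the authors' deposited table (-1.84, FDR 0.0301). Gpr142, a G protein-coupled receptor gene, had 2.89 and 4.86 in the authors' deposited table (-1.97, FDR 0.0332). For 2310069B03Rik the levels were 3.88 and 5.54 in the authors' deposited table (-1.65, FDR 0.0451). The Erap1 peak had the highest control level of the 13.

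**Figure D3:**
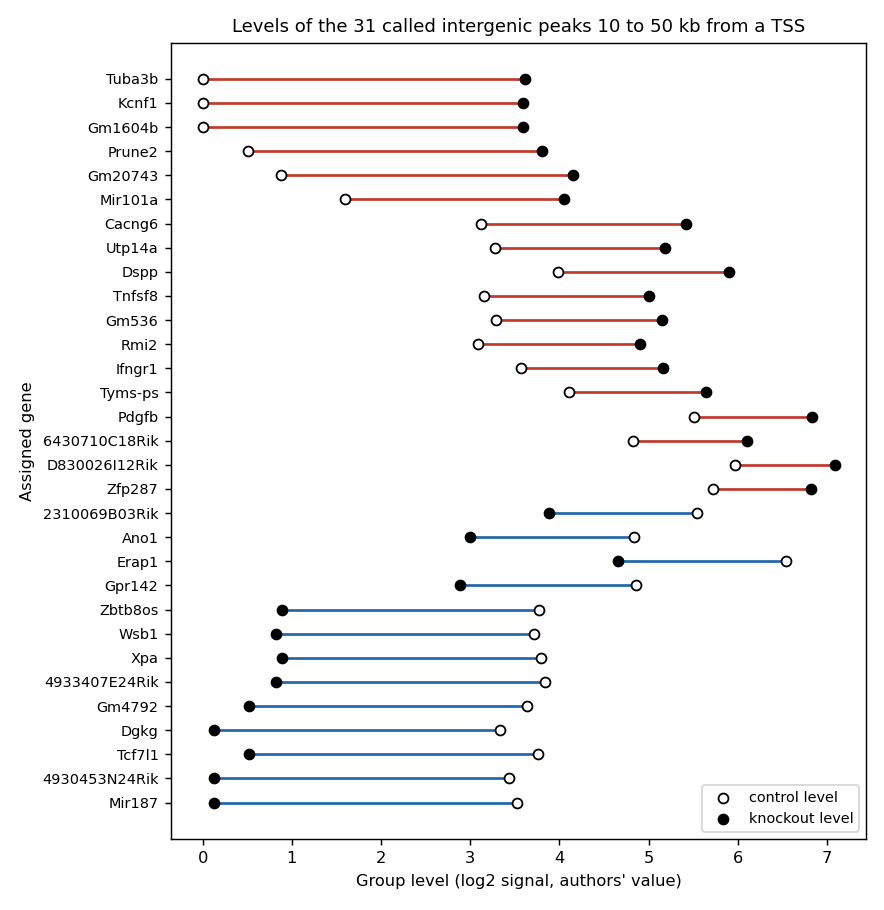
Knockout (filled) and control (open) log2 levels of the 31 called peaks, 1 row per peak named by its assigned gene, with red lines for gains and blue lines for losses. Of the 13 losses 9 end below a knockout level of 1, and of the 18 gains 5 start below a control level of 1.

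Pdgfb, which encodes the growth factor with which tip cells recruit pericytes, had 4 peaks in this distance range, all with positive folds, and 1 was called. The called peak (chromosome 15, 80025580 to 80026028) stood at 6.83 in knockout and 5.51 in control in the authors' deposited table (1.32, FDR 0.0284). In the authors' deposited table the others had folds of 1.23 (FDR 0.138), 1.07 (FDR 0.201) and 0.63 (FDR 0.527). The annotated distance of the called peak is -10827 bases, but in RefSeq it starts 966 bases upstream of the 5′ boundary of Pdgfb at 80024614. These peaks sit in a row of 13 consecutive listed peaks with positive folds that spans 138724 bases, from 79933780 to 80072503. Of the 13, 9 are members: 4 of Pdgfb, 3 of Cbx7, a Polycomb protein gene, and 2 of the small nucleolar RNA gene Snord83b, with folds from 0.63 to 1.32 (median 0.87). Both Snord83b members, at 0.85 and 0.78, and the 3 Cbx7 members, at 0.87, 0.71 and 0.94, were uncalled in the authors' deposited table, and the Cbx7 peaks lie inside that gene in RefSeq.

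The row is the densest stretch of listed peaks around any member. Within 75 kb of the called Pdgfb peak there were 13 listed peaks, itself included, where the median member had 2, and the 6 members with 10 or more all belong to this row. The row was extended on each side up to the next listed peak with a negative fold, so its flanks are negative by definition. In the authors' deposited table these flanks were -1.66 near Kcnj4, starting at 79505199 on the left, and -1.35 near Syngr1, starting at 80088725 on the right. The Cre transgene is driven by Pdgfb sequence and is carried by the knockout group alone. Additional DNA copies of this region and greater openness of it cannot be told apart in this design. Without the row, 17 members were called higher and 72.4% had positive folds.

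**Figure D4:**
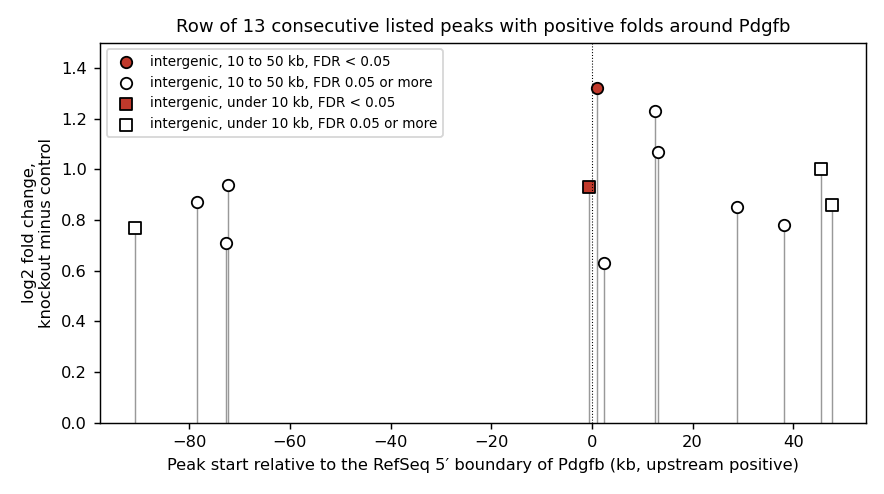
The log2 fold (knockout minus control) of the 13 listed peaks of the row is plotted against the start of each peak relative to the RefSeq 5′ boundary of Pdgfb, in kb with upstream positive. Circles are members and squares are intergenic peaks annotated by the authors as nearer than 10 kb to a TSS. Filled symbols are at FDR < 0.05, and all folds lie between 0.63 and 1.32.

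The 15 lists of endothelial and pathway genes and 10 lists of cell type markers together held 84 members. Of these, 62 had positive folds and 2 were called, Pdgfb and Tcf7l1. Both counts are near the shares over all members, 72.6% positive and 2.46% called, and the lists taken singly were not tested. Tip cell genes had 8 peaks with positive and 1 with negative folds over 5 of 26 genes (median 1.23, beside 1.06 over all members), and 4 of the 8 were the Pdgfb peaks. Esm1, a proteoglycan gene of tip cells, had 1 peak on each side of its TSS, at 1.36 (4.66 in knockout and 3.30 in control) and 1.33 (4.36 and 3.03), both uncalled (FDR 0.409 for the first and 0.497 for the second in the authors' deposited table). Lamb1, a basement membrane laminin gene, was at 1.33, Igfbp3, an insulin-like growth factor binding protein gene, at 0.66 and Fscn1, the gene of an actin-bundling protein of filopodia, at -0.76 in the authors' deposited table. Extracellular matrix and adhesion genes had 6 of 6 positive folds (median 1.41). They included Thbs1, the gene of an inhibitor of angiogenesis (3.68 and 1.00, 2.68, FDR 0.109 in the authors' deposited table), and 2 peaks of the tenascin gene Tnc at 1.88 and 1.47, of which the smaller FDR was 0.225. Integrin genes were at 1.35 for Itga2 and 0.69 for Itgav in the authors' deposited table. The arterial list had 1 peak, that of Igfbp3.

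Wnt and barrier genes leaned to negative folds, with 5 of 6 peaks over 4 of 28 genes and a median of -1.06. Besides the called Tcf7l1 peak they were a stronger Tcf7l1 site (knockout 4.80, control 5.89, fold -1.09, FDR 0.519 in the authors' deposited table) and 2 adjacent sites of Tcf7, the gene of another Wnt effector. In the authors' deposited table the Tcf7 sites stood at 2.92 and 4.39 (-1.47, FDR 0.146) and at 2.74 in knockout and 3.73 in control (FDR 0.477). Slc7a5, the gene of an amino acid transporter of the barrier, was at -1.04 (knockout 4.34, control 5.38, FDR 0.225 in the authors' deposited table). Axin2, a feedback target of the pathway, was the exception at 1.64 (knockout 3.58, control 1.94, FDR 0.377 in the authors' deposited table). Over all annotation classes, members included, 4 of this list's 17 listed peaks had positive folds.

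VEGF pathway peaks went both ways, 3 positive and 4 negative over 6 of 30 genes (median -1.42). Of the receptor genes, Flt1, which encodes the decoy receptor, had in the authors' deposited table folds of 0.81 (FDR 0.315) and 0.77 (FDR 0.479). Kdr, the gene of the main signalling receptor, had -1.46 (knockout 2.39, control 3.84, FDR 0.382 in the authors' deposited table). Flt4, the VEGF-C receptor gene, had in the authors' deposited table -1.42 (FDR 0.501). Downstream, Ptk2, the focal adhesion kinase gene, stood at 2.52 and 4.40 (-1.88, FDR 0.0589), the closest of the list to the threshold in the authors' deposited table. Mapk3, a MAP kinase gene, was at -1.49 (FDR 0.134) and Sos1, a Ras activator gene, at 0.83 (FDR 0.435) in the authors' deposited table. None of these was called.

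Notch pathway peaks had 5 positive folds of 6 over 5 of 35 genes (median 1.02). Rbpj, the gene of the DNA-binding factor of the pathway, had a peak 12081 bases upstream at 5.10 in knockout and 3.69 in control in the authors' deposited table (1.42, FDR 0.0916). The target gene Hes1 was at 1.89 (knockout 3.67, control 1.78, FDR 0.26 in the authors' deposited table). Nrarp, a feedback inhibitor and target, had peaks on the same side whose folds in the authors' deposited table differ in sign, 1.74 (FDR 0.264) and -1.54 (FDR 0.268). Numbl, a Notch inhibitor gene, was at 0.62 and Maml2, a coactivator gene, at 0.60 in the authors' deposited table. None was called.

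Inflammatory genes had 6 of 6 positive folds over 5 of 28 genes (median 1.14), none called. Cxcl1, a chemokine gene, came closest at 6.51 in knockout and 5.42 in control in the authors' deposited table (1.09, FDR 0.0751). Il6, a cytokine gene, was at 2.13 (knockout 4.17, control 2.03, FDR 0.186 in the authors' deposited table). Ccl2, another chemokine gene, had neighbouring peaks at 1.13 and 1.38, and Socs3, a feedback inhibitor of cytokine signalling, 1 at 1.14 in the authors' deposited table. Immediate early genes, which respond within minutes to growth factors and stress, had 8 of 10 positive folds (median 0.74) and 0 calls. Ier2 had the smallest FDR (knockout 5.77, control 4.19, fold 1.57, FDR 0.112 in the authors' deposited table). Fos, an AP-1 subunit gene, had 3 peaks, at 0.69, 1.61 and -2.09 in the authors' deposited table. Egr1 was at 1.11 and Klf10 at 1.40 in the authors' deposited table, and the second Dusp1 peak was at 0.75.

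**Figure D5:**
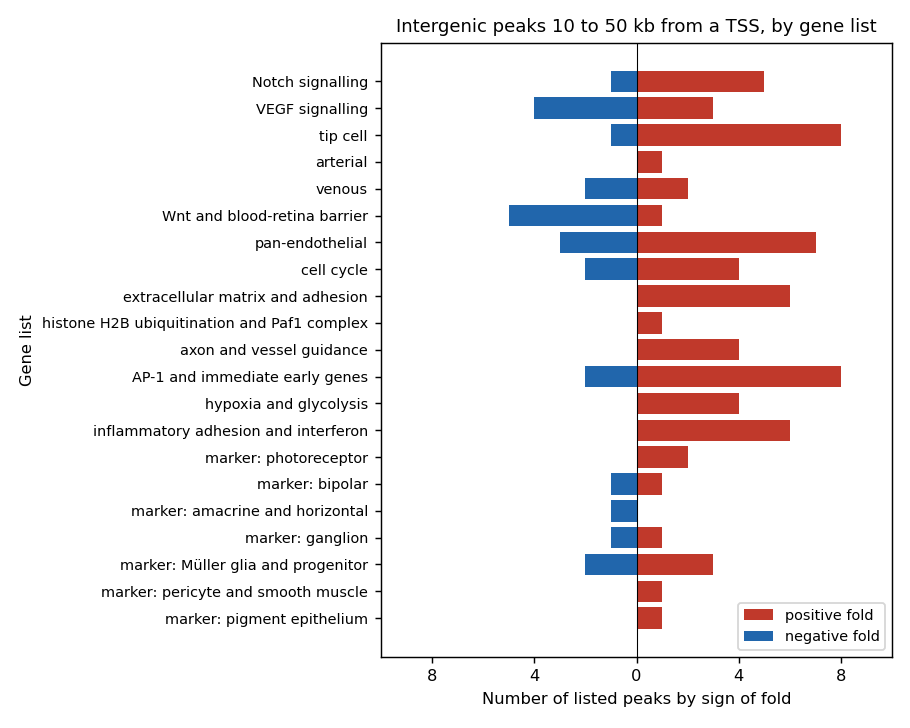
Bars give the number of members assigned to the genes of each list, with positive folds to the right and negative folds to the left of 0; lists without a member are not drawn. Tip cell genes had 8 and 1, matrix genes 6 and 0, inflammatory genes 6 and 0, and Wnt and barrier genes 1 and 5.

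For most lists with several members the count over all annotation classes, members included, leaned less to positive folds than the members did. The same holds without lists, at 62.1% positive over all listed peaks and 72.6% over the members, so nothing particular to the lists is read from it. The count over all classes was 9 of 16 for Notch, 12 of 20 for immediate early, 11 of 23 for cell cycle and 19 of 38 for pan-endothelial genes. For tip cell genes it was 17 of 23, for matrix 30 of 34, for inflammatory 16 of 18, for guidance 32 of 42 and for hypoxia and glycolysis genes 11 of 16. For VEGF genes it was 11 of 25, close to the members' 3 of 7. The remaining lists held few peaks and 0 calls. Pan-endothelial genes had 7 positive and 3 negative folds (median 0.79), among them Fli1, an ETS factor gene, at 0.82 (knockout 6.23, control 5.41, FDR 0.232), and Gata2, a GATA factor gene, at -1.69 (FDR 0.257) in the authors' deposited table. Klf2, a flow-responsive factor gene, had peaks 1.78 and -0.89 on the log2 fold scale in the authors' deposited table. Venous genes had 2 and 2, with Vwf, the von Willebrand factor gene, at 1.52 and Emcn, the endomucin gene, at 1.20, against Aplnr, the apelin receptor gene, at -0.71 and Flt4 in the authors' deposited table. Cell cycle genes had 4 and 2, with Myc at 1.45 (FDR 0.114), Mki67 at 1.00 and Ccnd1, the cyclin D1 gene, at -2.13 (FDR 0.0922) in the authors' deposited table. Hypoxia and glycolysis genes had 4 of 4 positive folds, at Ldha (1.49), Pfkp (2.21), Bnip3 (1.35) and Slc2a3, whose control was listed at 0 against 2.92 in knockout, in the authors' deposited table. Guidance genes had 4 of 4, at Ntn4 (0.84), Sema3f (0.68), Sema4d (0.64) and Unc5a (1.56) in the authors' deposited table. The H2B ubiquitination list had 1 peak, at Wdr5, a subunit gene of histone H3 methyltransferases (1.64, FDR 0.0962 in the authors' deposited table), and the TGF-beta and BMP list had 0.

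Cell type markers outside endothelium gave single peaks with values in both directions. Photoreceptor markers had Thrb at 1.49 and Prdm1 at 1.43 in the authors' deposited table. The Müller glia and progenitor list had Sox8 at -1.57, Sfrp2 at 2.26, Six3 at 1.36 and the Hes1 peak given above in the authors' deposited table. The amacrine marker Tfap2c was at -1.65, the ganglion cell markers Nefl at -1.09 and Rbpms at 0.63, and the bipolar marker Bhlhe23 at 0.86 in the authors' deposited table. Kcnj8, a pericyte potassium channel gene, was at 1.21 and Dct, a pigment cell gene, had levels of 4.92 and 3.79 in the authors' deposited table. Astrocyte, microglia and erythroid markers had 0 members. The part of other cell types in these results was not tested.

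Several genes had more than 1 peak in this range. Of 128 genes with 2 or more, 70 had positive folds only, 13 negative folds only and 45 both. Bach1, the gene of a haem-regulated repressor, had the most, with 5 peaks, all upstream. Its folds in the authors' deposited table were -0.93, 0.74, 1.70, -1.49 and 2.50 in genomic order, with FDR from 0.209 to 0.519. Syf2, a splicing factor gene, had 4, at -1.45, 0.85, -1.68 and 1.74 in the authors' deposited table. Neither gene's peaks shared a direction. Of the 16 genes with 3 or more members, 6 had positive folds throughout: Pdgfb, Cbx7, Itpripl2, Ccdc149, 5830428M24Rik and Myl10. At Ccdc149 they were 2.33, 2.18 and 1.60, and at Itpripl2 1.57, 1.00 and 2.11, with no call in the authors' deposited table. Myl10, a myosin light chain gene, had 2.12 and 2.77 and 1 peak with its control listed at 0 in the authors' deposited table. Signs were mixed at Fos, Btg1, an antiproliferative gene, Hnrnpa3, a splicing factor gene, and Foxl1, a forkhead gene. They were also mixed at Fam163a, Cartpt, 4931406P16Rik and 4930445N18Rik.

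Some distal peaks had a listed promoter peak at the same assigned gene. Pairs were made by gene name, so the promoter peak need not lie at the TSS behind the distal distance. At Maml2 the distal peak starts at 13587042 with an annotated distance of -32690 bases, and the promoter peak starts at 13662282. Positions and annotated distance also differed at Esrrg, Snx10 and Zfp217. For 15 genes with 17 members a promoter-TSS peak was also listed, and none of these promoter peaks was called. Both were positive for 8 members and both negative for 1, Lhfpl2. For the other 8 the distal peak was positive and the promoter negative, and the reverse pattern had 0 cases. Beside this stand the shares of the classes as a whole, 72.6% positive among the members and 36.4% among promoter-TSS peaks, and nothing particular to these genes is read from the count. Ldha, the lactate dehydrogenase gene, had a distal fold of 1.49 and a promoter fold of -0.82 (5.73 in control and 4.91 in knockout) in the authors' deposited table. Maml2 had 0.60 at the distal site and -1.65 at the promoter in the authors' deposited table. At Snx10, a sorting nexin gene, the distal peak had 1.53 (FDR 0.229) and the promoter -1.83 (FDR 0.0773) in the authors' deposited table. Esrrg, Ggta1, Dynll2, Rd3 and Zfp217 completed the 8. Positive in both were A4galt and F2rl1, with 2 members each, Cldn4, Cxcl5, Lincred1 and T, the brachyury gene. These genes were named after their values were seen.

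The authors' annotation and RefSeq differ for some of these peaks. Of the 1219 members on the chromosomes compared, 198 had their centre within 10000 bases of a RefSeq start, and 42 within 1000 bases. The gene of the nearest RefSeq start had the same symbol as the assigned gene for 609 of the 1219. In RefSeq 264 of the 1262 overlapped a gene, among them 184 a long noncoding RNA gene and 61 a protein-coding gene. Positive folds made up 72.7% of the 264 and 72.5% of the other 998, so the balance was close in both. For peaks over long noncoding RNA genes it was 143 of 184 (77.7%) and over protein-coding genes 39 of 61 (63.9%), with overlapping Wilson intervals. Of the 31 called peaks, 5 overlapped a RefSeq gene, and they are those assigned to Gm20743, Erap1, 4933407E24Rik, 6430710C18Rik and Zfp287.

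Members lay on all autosomes and the X chromosome. Positive folds ranged from 62.7% on chromosome 13 (37 of 59) to 83.9% on chromosome 19 (26 of 31) among the autosomes. On the X chromosome 14 of 15 had positive folds, and the peak near Utp14a was the called one there. Positive folds were thus the majority on each chromosome.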

How the data were processed

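ATAC-seq was performed on 4 libraries of retinal endothelial cells. The deposited data used are 1 table of 6891 peaks, given as text and as a workbook; 4 gene names differ between the copies, and the workbook was used. The submitters' processing notes give the build mm10 and name, with no roles, MACS2, DiffBind, edgeR, ChIPseeker, Bowtie2, deepTools, SAMtools, Trimmomatic 0.36 and Picard 1.119. The sources used here do not state the peak set, read shifting, scaling or depth per library. Per peak, the authors deposited log2 levels for knockout, control and their mean, with a log2 fold that matched the difference of both levels to 0.011 at each of 6891 peaks. An unadjusted p-value and an FDR per peak were deposited too. The distance to the TSS is the authors' deposited annotation.

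Members were taken by class and distance, and counts, medians and 95% Wilson intervals were computed with Python 3.11.15, pandas 2.3.3 and SciPy 1.17.1. The table gives group values only, so no SD and no new test of a peak was possible. Of 1111 gene symbols, 1108 matched the RefSeq gene table. Promoter windows were compared for the 1219 members on the chromosomes used. The calculation of the number of peaks tested was tested on simulated data. The members and lists were chosen with earlier results of these data known. Named peaks are all called members, up to 3 of smallest p per list, the 5 strongest, the 5 of largest fold with neither level at its lowest value (Gm, Rik and Mir genes left out of these 3 parts of the rule), and those of genes with 3 or more members. Other list members, promoter-window peaks and promoter pairs were named after their values were seen, to account for their lists. The values of 1 marker gene are not reported here.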

Additional observations from a re-analysis of the deposited data

How the results depend on the processing

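The share of members with positive folds stayed between 70.7% and 79.8% over 11 alternatives, and in 10 of them it remained within the Wilson interval of 72.6%. It moved to 79.8% for peaks whose mean signal reached the median of all listed peaks. Counts of called members followed the settings that add or remove peaks. At FDR < 0.01, 2 members were higher and 0 lower; the authors' FDR gives no other tool's count, and members listed at unadjusted p < 0.05 with negative folds were 346. Extending the range to 100 kb gave 28 higher of 1815 peaks, beside 18 of 1262 as reported. Starting it at 20 kb gave 11 higher and 8 lower of 793 peaks, and starting it at 5 kb gave 20 lower of 1563. Of the 630 peaks reaching that median 4 were lower, against 13 of all 1262. Over all listed peaks 1.29% were called higher and 1.73% lower. In the third and the strongest quartile of all listed peaks 0.811% and 0.701% were called lower. Nothing particular to the members is read from these counts. The removal of the row around Pdgfb was chosen after seeing the data. No paired analysis was possible because the table holds no values per library, and for the same reason no library could be left out. Depth per library is unknown, so what it limits could not be computed.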

Other observations

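Of the 5 largest folds with neither level at its lowest value, leaving out Gm, Rik and Mir genes, 3 further peaks were uncalled. In the authors' deposited table they were assigned to Olfr688, an olfactory receptor gene (3.73 in knockout and 0.51 in control, 3.22, FDR 0.0702), to Csmd1 (3.45 and 0.51, 2.95, FDR 0.108) and to Klf9, a Krüppel-like factor gene (3.59 and 0.67, 2.93, FDR 0.0779). The control level of each was under 1 on the log2 scale, while Tcf7l1 and Prune2, the other 2 of the 5, were called. In the second quartile of mean signal (3.01 to 3.74) 0 members were called lower, beside 1.95% of all listed peaks there. Positive folds made up 56.5% of the members in it, the lowest share of the 4 quartiles. The share over all listed peaks was lowest there too, at 54.1%.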
